A study of Mus musculus with 12 samples.

Results

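Complement genes were followed in mouse kidney RNA: 33 genes encoding components, receptors and regulators of the complement cascade, taken by symbol from the 33188 genes of the deposited table. Every symbol matched 1 gene. Kidneys came from wild-type mice in 3 groups of 4 libraries. XZSW was a hyperuricemia model treated with Xin-Zi-Sheng-Wan decoction, a traditional Chinese formula. HUA was the same model without it, made with potassium oxonate, which blocks uricase, together with hypoxanthine, a purine that is oxidised to uric acid. CTL was the control group. The model is chemical and acts on the whole animal. Dose, duration, age and sex are not stated in those labels. The question was how the complement genes differed between the model and its controls, and between the treated and the untreated model. The labels do not state whether each library is a different mouse. The p-values below therefore rest on the spread among 4 libraries a group, and that spread may be technical.

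Complement is a set of plasma and membrane proteins that tag targets and punch pores in membranes. The classical arm starts when C1q binds antibody or damaged surfaces and the proteases C1r and C1s cut C4 and C2. The lectin arm uses MASP proteases for the same step, and the alternative arm uses factor B, factor D and properdin. All arms meet at the cleavage of C3, which is followed by assembly of C5 to C9. Fragments of C3 and C5 signal through receptors on leukocytes, and regulators such as factor I, CD55, CD59 and C1 inhibitor limit the cascade. The liver makes most plasma complement, and tubular cells and macrophages of the kidney are known to make some components themselves.

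The columns of the table carry the letters C, N and M, which the sample descriptions tie to CTL, HUA and XZSW. Library totals were 51.6 to 74.3 M counts. The summed level of 9 kidney markers was 9289.6 to 12590.4 CPM in XZSW, 3696 to 8681 CPM in HUA and 10522 to 12105 CPM in CTL (counts scaled per 1e6 with TMM factors). Of the 9, 1 rose and 3 fell in HUA against CTL. The 3 were the proximal tubule genes Lrp2 (log2 change -1.64), Slc34a1 (-1.50) and Aqp1 (-0.90). No marker of any list used below was at 0 in all libraries. GC-rich genes stood higher in HUA2 to HUA4, XZSW3 and XZSW4 than in the mean of CTL, the slope being 0.16 to 0.25 log2 per 10% GC for those 5 and -0.05 to 0.04 for the remaining 7. This class runs across the HUA and XZSW groups, and calls that ended when it was added to the fit are named beside the gene. Levels below are such CPM values, listed from library 1 to 4 of a group. Changes were tested with edgeR's quasi-likelihood test over 19772 genes, with Benjamini-Hochberg adjustment over all of them, and rose and fell are used for genes at an adjusted p under 0.05.

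Among the 30 complement genes with enough counts to be tested, 15 rose in HUA against CTL and 5 fell. Those that rose included the C1q chains, C1ra, C4b, C3, Cfi and the receptors C3ar1 and C5ar1, and those that fell were C4a, Cfb, C8a, C8g and Cd55. Of all tested genes 27.8% were called in this comparison, 14.9% upward and 12.8% downward. The median log2 change of the 30 was 1.05 in HUA against CTL, against 0.06 over all tested genes. For XZSW against HUA it was 0.05, against 0.0075 over all tested genes, with 17 of the 30 higher and 13 lower, called or not. For XZSW against CTL it was 0.93, against 0.04 over all tested genes. In XZSW against HUA, C4a and C8g rose and C1qa, C1qb, C4b, Masp1, C3 and Cfi fell, which makes 2 rises and 6 falls, where 15.4% of all tested genes were called, 7.09% upward and 8.34% downward. In XZSW against CTL, 8 rose (C1ra, C1s1, C4b, C3, Cfp, Hc, C3ar1 and Cfi) and 0 fell, where 4.99% of all tested genes were called, 2.72% upward and 2.27% downward. At an unadjusted p under 0.05 edgeR gave 6 lower in that comparison. After adjustment DESeq2 and limma called 0 lower. Limma used deposited FPKM without TMM factors and gave 1188 up and 188 down over all tested genes. The fit on only the 8 libraries of XZSW and CTL called 3 lower. A replicate block and the GC class each called 1 lower. The 3 comparisons share libraries in pairs, so their counts are not independent. The shares over all tested genes also belong beside the counts by arm and by marker list below. Whether a single arm or list differed from them was not tested. C8b, C5ar2 and Vsig4 were not tested, and Hc and C6 passed the filter with almost no counts in CTL, so these totals describe the genes with counts and not the whole list. With scaling by library totals alone, HUA against CTL gave 5779 up and 1320 down over all tested genes, in place of 2950 and 2538. The split was then 836 up and 2714 down in XZSW against HUA, in place of 1402 and 1649, and 1221 up and 224 down in XZSW against CTL, in place of 538 and 449.

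**Figure D1:**
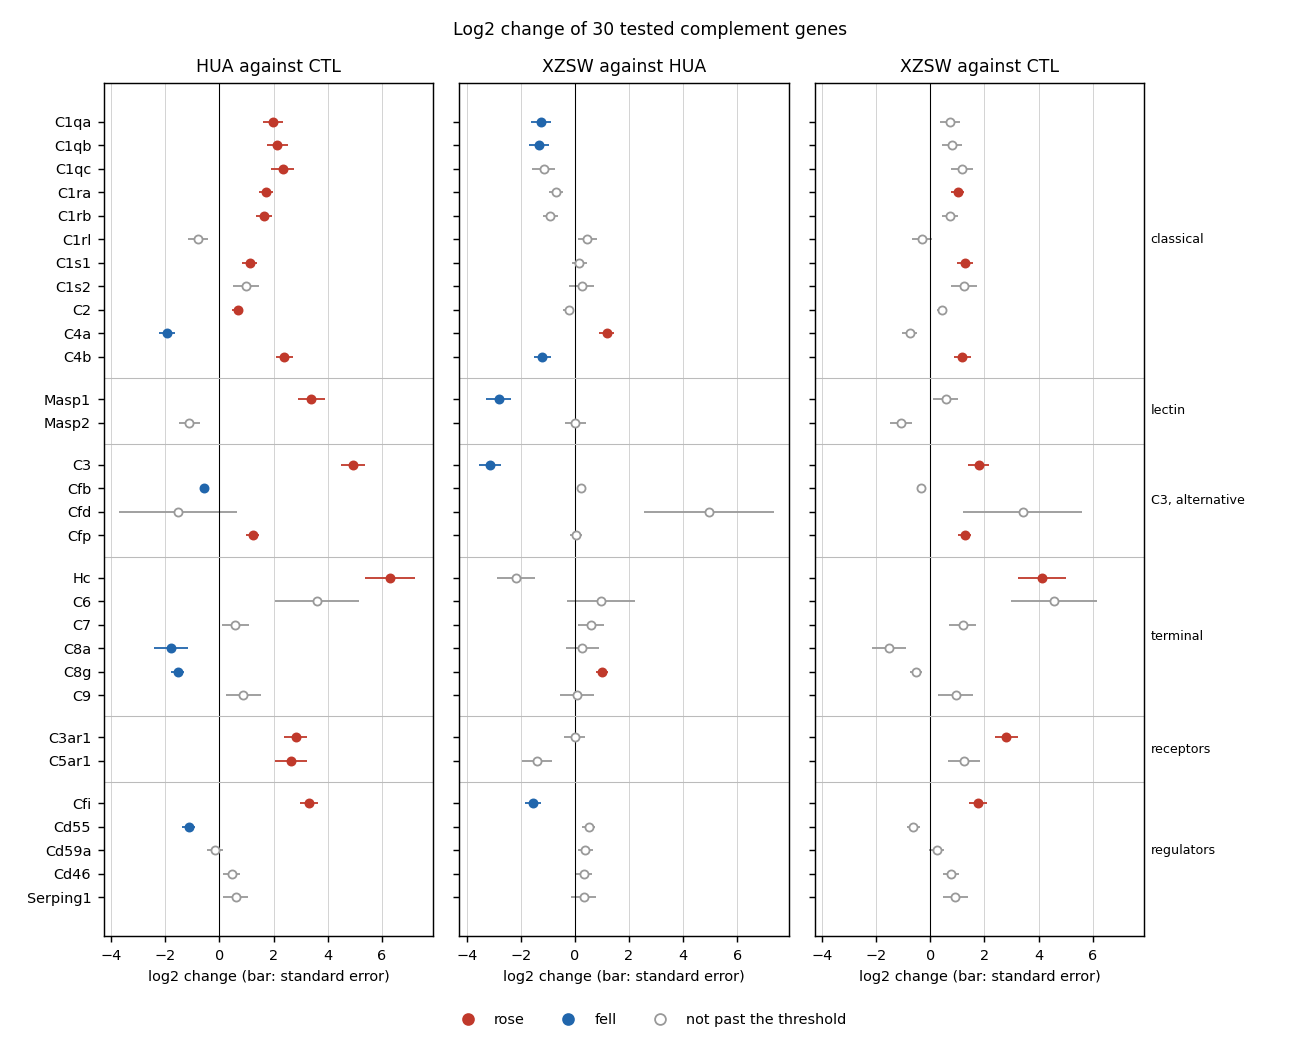
Log2 change (x axis) of each of the 30 tested complement genes (y axis, grouped by arm) in the 3 comparisons, with bars of 1 standard error; filled points passed an adjusted p of 0.05 and open points did not. C3 stands at 4.93 in HUA against CTL and at -3.14 in XZSW against HUA, while C4a moves opposite to C4b in both of these.

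Promoter sequences give context for genes that moved together or apart. The 250 bases upstream of the annotated start are shown for C3, which had the largest rise among members with a mean of at least 1 FPKM, for C1qb and C1qc, neighbours on chromosome 4 that rose together, and for C8a, which fell. They are RefSeq sequences of GRCm38.p6, all on the minus strand and written 5′ to 3′, at chr17:57228137-57228386, chr4:136886201-136886450, chr4:136892915-136893164 and chr4:104876399-104876648. Capitals mark matches on either strand to a kappaB motif (GGG and CC with any 5 bases between), a C/EBP motif (TTGCNNAA), a STAT motif (TTCNNNGAA) or an interferon response motif (TTTC and TTTC with any 2 bases between). Overlapping matches run together.
C3: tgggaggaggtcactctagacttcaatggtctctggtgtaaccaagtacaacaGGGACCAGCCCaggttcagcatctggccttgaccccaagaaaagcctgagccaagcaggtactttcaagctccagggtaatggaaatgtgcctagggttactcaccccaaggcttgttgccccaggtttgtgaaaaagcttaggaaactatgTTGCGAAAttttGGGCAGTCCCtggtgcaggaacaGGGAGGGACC
C1qb: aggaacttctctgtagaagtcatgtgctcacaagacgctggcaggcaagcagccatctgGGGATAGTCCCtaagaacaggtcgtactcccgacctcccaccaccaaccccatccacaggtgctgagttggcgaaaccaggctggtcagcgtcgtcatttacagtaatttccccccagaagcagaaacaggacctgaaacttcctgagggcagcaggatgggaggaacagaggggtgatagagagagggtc
C1qc: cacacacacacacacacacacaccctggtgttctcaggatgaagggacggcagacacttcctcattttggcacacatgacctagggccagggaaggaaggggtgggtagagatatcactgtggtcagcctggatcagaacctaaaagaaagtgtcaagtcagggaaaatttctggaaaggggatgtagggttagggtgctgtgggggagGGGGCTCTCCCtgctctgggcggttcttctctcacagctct
C8a: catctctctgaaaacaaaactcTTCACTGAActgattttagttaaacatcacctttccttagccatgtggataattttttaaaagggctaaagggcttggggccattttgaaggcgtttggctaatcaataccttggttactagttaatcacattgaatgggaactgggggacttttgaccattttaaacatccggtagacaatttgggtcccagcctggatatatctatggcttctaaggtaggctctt
The C3 sequence held kappaB matches, some overlapping, and, between 45 and 38 bases before the start, a C/EBP match, C1qb and C1qc each held overlapping kappaB matches, and C8a held a STAT match. The genes shown do not stand for the rest. Cd55, which fell in HUA against CTL, held 4 kappaB matches, some overlapping. Hc and C1ra, which rose there, held no match to any of these motifs. Whether matches went with the direction of change was not tested. Promoters were listed for 25 of the 33 genes, as 28 starts. The kappaB motif was found in 13 of these 28 and in 45.8% of all 32851 promoters, the C/EBP motif in 6 and in 9.56%, and the STAT motif in 4 and in 7.02%. The interferon response motif was found in 1 of the 28 and in 2.98% of all promoters. Matches are descriptions of the letters and not binding sites.

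The classical arm has 11 genes in the list, of which 8 rose and 1 fell in HUA against CTL, while 1 rose and 3 fell in XZSW against HUA, and 3 rose in XZSW against CTL. C1q is the recognition molecule of this arm, built of A, B and C chains whose genes lie side by side on chromosome 4, C1qa at chr4:136895917-136898803 (GRCm38, as in the deposited table). C1qa had 8.38, 12.8, 18.8 and 15.97 CPM in XZSW, 33.05, 36.96, 49.6 and 13.3 CPM in HUA and 5.27, 10.1, 6.804 and 11.5 CPM in CTL. C1qb had 8.804, 10.1, 16.7 and 15.3 CPM in XZSW, 20.2, 36.5, 52.5 and 18.8 CPM in HUA and 5.12, 8.67, 4.05 and 11.3 CPM in CTL. C1qc had 7.39, 9.18, 18.3 and 17.6 CPM in XZSW, 25.2, 37.1, 41.6 and 13.02 CPM in HUA and 3.88, 6.27, 3.53 and 9.55 CPM in CTL. For all 3 chains the HUA libraries lay above all CTL libraries, with HUA4 the lowest of its group, and XZSW overlapped CTL. XZSW lay below HUA throughout for C1qb and overlapped it for C1qa and C1qc. The chains rose in HUA against CTL by log2 changes of 1.98 for C1qa (SE 0.38, adjusted p = 0.00207), 2.13 for C1qb (adjusted p = 0.00170) and 2.33 for C1qc (adjusted p = 0.00173). C1qa fell in XZSW against HUA (log2 change -1.25, SE 0.37, adjusted p = 0.0365), C1qb fell (log2 change -1.33, SE 0.38, adjusted p = 0.0324), and C1qc did not pass (log2 change -1.16, SE 0.41, adjusted p = 0.0765), although it did with DESeq2 (adjusted p = 0.0239) and with library totals (adjusted p = 0.0481). Without any 1 of HUA2, HUA3, XZSW1, XZSW2 and XZSW4 these calls ended, at adjusted p = 0.0588 to 0.116 for C1qa and 0.0524 to 0.112 for C1qb. The C1qa call also ended in the fit on the 8 libraries of XZSW and HUA (adjusted p = 0.0706) and without the filter on low counts (adjusted p = 0.0539). None of the chains passed in XZSW against CTL, where the adjusted p was 0.255 for C1qa, 0.228 for C1qb and 0.115 for C1qc.

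Macrophages are the best known source of C1q in tissue, and markers of these cells were followed beside it. Of 12 macrophage markers 8 rose and 1 fell in HUA against CTL, 2 fell in XZSW against HUA, and 4 rose and 1 fell in XZSW against CTL. Their summed level was 88.5 to 237 CPM in XZSW, 279 to 349.8 CPM in HUA and 78.4 to 146 CPM in CTL. Cd14 took much of the sum in HUA, with 12.5 ± 3.75 CPM in XZSW, 134 ± 80.1 CPM in HUA and 5.34 ± 1.87 CPM in CTL (SD, n = 4 each). Adgre1, which encodes the macrophage antigen F4/80, had 1.34, 0.919, 3.95 and 4.01 CPM in XZSW, 7.08, 3.58, 3.37 and 0.576 CPM in HUA and 0.666, 1.29, 0.538 and 1.54 CPM in CTL. Adgre1 did not pass in HUA against CTL (adjusted p = 0.0555). The part of macrophages in the C1q result was not tested. In bulk tissue, fewer cells of a type and less RNA per cell cannot be told apart.

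C1r and C1s are the proteases carried by C1q, and mice have a pair of genes for each. C1ra had 10.2, 7.43, 12.2 and 12.03 CPM in XZSW, 16.1, 12.8, 20.2 and 18.8 CPM in HUA and 4.75, 6.11, 3.17 and 6.703 CPM in CTL. The 3 groups did not overlap for C1ra, with XZSW between HUA and CTL. C1ra rose in HUA against CTL (log2 change 1.71, SE 0.25, adjusted p = 0.000465). XZSW against HUA gave a log2 change of -0.70 with adjusted p = 0.0714. DESeq2, scaling by library totals and limma on log2(FPKM + 1) called this last difference, at adjusted p = 0.0317, 0.0364 and 0.0301. C1ra also rose in XZSW against CTL (log2 change 1.01, SE 0.25, adjusted p = 0.0366), but that call ended once GC class was fitted (adjusted p = 0.0688), without the filter on low counts (adjusted p = 0.0544) and without any 1 of the CTL libraries, XZSW1, XZSW3 or XZSW4 (adjusted p = 0.0515 to 0.096). Its copy C1rb averaged 1.74 ± 0.328 CPM in XZSW, 3.26 ± 0.553 CPM in HUA and 1.04 ± 0.363 CPM in CTL (SD, n = 4 each), and rose in HUA against CTL (log2 change 1.65, SE 0.30, adjusted p = 0.00160). Every XZSW library lay below every HUA library for C1rb, but the log2 change of -0.91 (SE 0.29) did not pass (adjusted p = 0.0522). It passed with library totals (adjusted p = 0.0262), DESeq2 (adjusted p = 0.0098) and limma on log2(FPKM + 1) (adjusted p = 0.00733). C1s1 had 9.32, 11.8, 18.5 and 15.9 CPM in XZSW, 10.7, 16.9, 14.5 and 7.41 CPM in HUA and 4.29, 6.92, 4.56 and 7.05 CPM in CTL. The C1s1 levels of XZSW and HUA overlapped, and both groups lay above CTL. C1s1 rose in HUA against CTL (log2 change 1.11, SE 0.29, adjusted p = 0.0122), a call that ended once GC class was fitted (log2 change 0.72, adjusted p = 0.123). It rose in XZSW against CTL as well (log2 change 1.28, SE 0.29, adjusted p = 0.0298), which ended once GC class was fitted (adjusted p = 0.0596) and without any 1 of the CTL libraries, XZSW3 or XZSW4 (adjusted p = 0.0541 to 0.0927). Its log2 change in XZSW against HUA was 0.16, with an interval of -0.41 to 0.74 (2 SE either side). C1s2 was lower, at 1.41 ± 0.417 CPM in XZSW, 1.19 ± 0.631 CPM in HUA and 0.595 ± 0.274 CPM in CTL (SD, n = 4 each), and did not pass in HUA against CTL (adjusted p = 0.145). The paralogs share sequence: 42.7% of the 100-base windows of the longest C1rb transcript occur unchanged in C1ra, and 8.78% of those of C1s2 occur in C1s1. Their split is therefore uncertain. With the counts of C1s1 and C1s2 summed, the log2 change was 1.10 in HUA against CTL (adjusted p = 0.0124) and 1.28 in XZSW against CTL (adjusted p = 0.0295). With C1ra and C1rb summed it was 0.97 in XZSW against CTL (adjusted p = 0.0365). The C1r-like protease gene C1rl averaged 13.8 ± 3.89 CPM in XZSW, 10.01 ± 4.91 CPM in HUA and 17.2 ± 2.25 CPM in CTL (SD, n = 4 each) and passed in no comparison (adjusted p = 0.137 in HUA against CTL). Fibroblasts express C1r and C1s. Of 8 fibroblast markers 2 rose in XZSW against CTL and 4 in HUA against CTL; in XZSW against HUA edgeR called 0, with 1 lower at an unadjusted p under 0.05. Their summed levels were 57.2 to 297 CPM in XZSW, 198 to 379 CPM in HUA and 57.8 to 91.4 CPM in CTL. Their part in the C1r and C1s values was not tested.

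C4b encodes the complement C4 of the mouse, and C4a encodes its close relative sex-limited protein, known from mouse work for androgen-dependent expression. They lie close together on chromosome 17, C4b at chr17:34728380-34743882 and C4a at chr17:34809092-34823464. The reference annotation lists no protein-coding transcript for C4a. C4b had 75.5, 85.7, 88.05 and 175 CPM in XZSW, 262, 176, 188 and 353 CPM in HUA and 41.1, 42.9, 36.2 and 66.2 CPM in CTL. C4a had 36.6, 37.9, 18.03 and 27.9 CPM in XZSW, 17.3, 15.9, 6.64 and 13.2 CPM in HUA and 57.98, 53.1, 45.3 and 47.1 CPM in CTL. The C4b values were highest in HUA and the C4a values lowest there, with no overlap between any 2 groups for C4a and with XZSW4 just under the lowest HUA library for C4b. C4b rose in HUA against CTL (log2 change 2.39, SE 0.31, adjusted p = 0.000228) and fell in XZSW against HUA (log2 change -1.20, SE 0.30, adjusted p = 0.0185). C4a fell in HUA against CTL (log2 change -1.94, SE 0.29, adjusted p = 0.000482), whereas it rose in XZSW against HUA (log2 change 1.18, SE 0.28, adjusted p = 0.0142). Its log2 change of -0.76 in XZSW against CTL did not pass (adjusted p = 0.125), but passed when the fit used only the 8 libraries of that comparison (adjusted p = 0.0456). Without any 1 of HUA4, XZSW1, XZSW2 and XZSW3 the C4b call in XZSW against HUA ended, at adjusted p = 0.0504 to 0.0578. When the fit used only the 8 libraries of XZSW and HUA, the C4a call ended at adjusted p = 0.052. In XZSW against CTL, C4b rose (log2 change 1.19, SE 0.30, adjusted p = 0.0421), which ended without any 1 of 7 libraries (CTL1, CTL2, CTL3 and each XZSW library, adjusted p = 0.0512 to 0.121), without the filter on low counts (adjusted p = 0.0618) and once GC class was fitted (adjusted p = 0.0884). Of 100-base windows of the longest C4b transcript, 16.5% occur unchanged in C4a, so some reads could be assigned to either. With the counts of both summed, the log2 change was 1.40 in HUA against CTL (adjusted p = 0.00139) and -0.92 in XZSW against HUA (adjusted p = 0.0243), while the C4b call in XZSW against CTL ended (log2 change 0.48, adjusted p = 0.257).

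The ratio of C4b to C4a in deposited FPKM, examined after the values were seen, is formed within each library, so the scaling between libraries does not enter it. It was 2.25, 2.47, 5.33 and 6.86 in XZSW, 16.5, 12.03, 30.99 and 29.3 in HUA and 0.774, 0.881, 0.872 and 1.53 in CTL. No 2 groups overlapped. The log2 ratio differed by 4.40 in HUA against CTL, by -2.45 in XZSW against HUA and by 1.95 in XZSW against CTL. An exact permutation test of the log2 ratio gave p = 0.0286, the smallest it can give, in each comparison. That outcome followed from the values above, since C4b and C4a each already set the groups apart. The ratio is therefore a description, and its p adds no support.

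**Figure D2:**
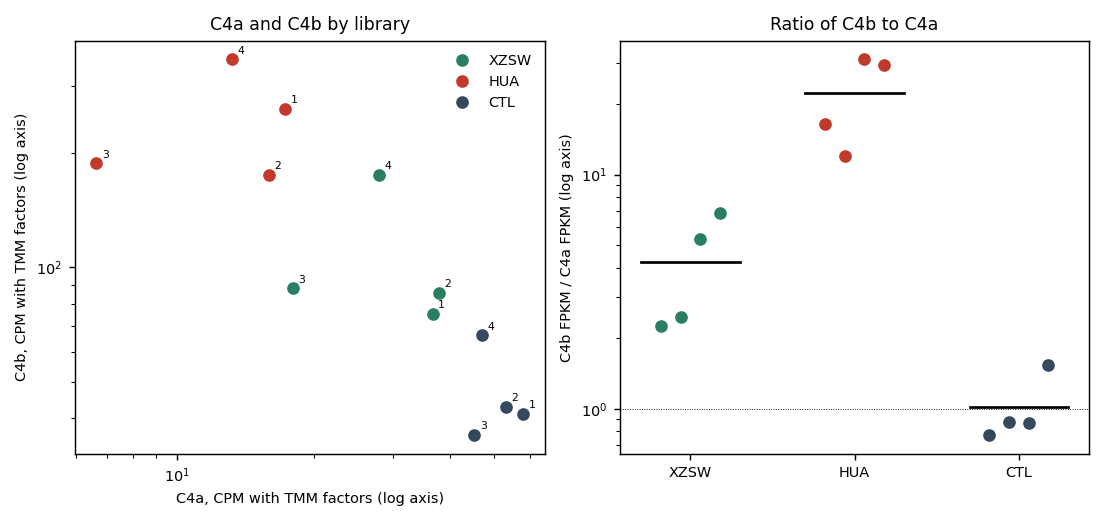
Left, C4b against C4a in CPM with TMM factors, on log axes, 1 point per library labelled by its number; right, the ratio of C4b to C4a in deposited FPKM on a log axis, with the group mean as a line (n = 4 each). XZSW lies at 2.25 to 6.86, HUA at 12.03 to 30.99 and CTL at 0.774 to 1.53, so the ratio sets the 3 groups apart.

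C2 is cut by C1s to make the classical C3 convertase. It had 31.1, 41.8, 34.6 and 27.5 CPM in XZSW, 31.9, 36.7, 34.7 and 55.4 CPM in HUA and 28.95, 25.98, 23.9 and 21.1 CPM in CTL, and HUA lay above CTL while XZSW overlapped both. C2 rose in HUA against CTL (log2 change 0.67, SE 0.19, adjusted p = 0.0188). The call ended without CTL3 or CTL4 (adjusted p = 0.0522 and 0.0593) and once GC class was fitted (adjusted p = 0.0817). C2 and Cfb are neighbours, and the readthrough gene Gm20547 overlaps both on the same strand with 0 counts. Genes on the other strand overlap C2 (Zbtb12), Masp1 (Rtp4), Masp2 (Tardbp), C8g (Fbxw5) and Cd46 (A330023F24Rik). The libraries keep strand, but whether the counting used it is not stated, so reads of such pairs may not be told apart.

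Of the 2 lectin arm proteases, Masp1 was called in 2 comparisons and Masp2 in 0, although Masp2 was lower at an unadjusted p under 0.05 in HUA against CTL and in XZSW against CTL. Masp1 encodes the protease that activates MASP-2, and it also yields splice forms that the gene-level counts do not separate. Its deposited FPKM stayed under 1 in every group mean, and it is described with full statistics after its values were seen. Masp1 had 0.841, 0.935, 1.35 and 1.08 CPM in XZSW, 7.19, 5.06, 9.01 and 8.58 CPM in HUA and 0.277, 1.37, 0.258 and 0.922 CPM in CTL. All HUA libraries lay well above every library of XZSW and CTL, which overlapped. Masp1 rose in HUA against CTL (log2 change 3.39, SE 0.49, adjusted p = 0.000417) and fell in XZSW against HUA (log2 change -2.82, SE 0.47, adjusted p = 0.00259). In XZSW against CTL the log2 change was 0.57, with an interval of -0.35 to 1.49 (2 SE either side). Masp2, whose product cuts C4 and C2, averaged 1.21 ± 0.616 CPM in XZSW, 1.19 ± 0.457 CPM in HUA and 2.58 ± 0.507 CPM in CTL (SD, n = 4 each), and its log2 change of -1.11 in HUA against CTL did not pass (adjusted p = 0.0518). It did with DESeq2 (adjusted p = 0.0224), in the fit on the 8 libraries of HUA and CTL (adjusted p = 0.0499), once GC class was fitted (adjusted p = 0.00802) and without XZSW3 (adjusted p = 0.0383). It passed in XZSW against CTL once GC class was fitted (adjusted p = 0.0223).

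HUA against CTL gave 2 rises and 1 fall among C3 and the 3 alternative arm genes; among the same 4, 1 fell in XZSW against HUA and 2 rose in XZSW against CTL. C3 is the protein at which all arms meet, encoded at chr17:57203970-57228136. It had 71.1, 92.5, 91.97 and 99.5 CPM in XZSW, 1101, 399.7, 604 and 1022 CPM in HUA and 26.6, 35.4, 8.55 and 31.9 CPM in CTL. No 2 groups overlapped: the lowest HUA library stood above the highest XZSW library, and the lowest XZSW library above the highest CTL library. C3 rose in HUA against CTL (log2 change 4.93, SE 0.45, adjusted p = 2.62e-05) and fell in XZSW against HUA (log2 change -3.14, SE 0.41, adjusted p = 0.000746). Over 12 omissions of 1 library the log2 change ran from 4.64 to 5.18 in HUA against CTL and from -3.37 to -2.95 in XZSW against HUA, and neither call ended. In XZSW against CTL, C3 rose (log2 change 1.79, SE 0.39, adjusted p = 0.0250), a call that ended without CTL1, CTL2, CTL4, XZSW3 or XZSW4 (adjusted p = 0.0529 to 0.0675).

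Factor B, the protease of the alternative C3 convertase, is encoded by Cfb. It had 359.8, 427, 322 and 367 CPM in XZSW, 342, 321, 267 and 349 CPM in HUA and 448, 515, 468 and 446 CPM in CTL. Cfb fell in HUA against CTL (log2 change -0.55, SE 0.13, adjusted p = 0.00753), with HUA below every CTL library. The call ended under 3 alternatives: the log2 change was -0.22 with library totals (adjusted p = 0.154), -0.21 with limma on log2(FPKM + 1) (adjusted p = 0.15) and -0.43 once GC class was fitted (adjusted p = 0.0568). Library totals moved the median log2 change of all genes in this comparison by 0.33. Properdin, which stabilises that convertase, is encoded by the X-linked gene Cfp. Cfp had 5.23, 4.37, 4.69 and 4.35 CPM in XZSW, 4.25, 6.25, 4.09 and 3.59 CPM in HUA and 1.54, 1.94, 1.72 and 2.51 CPM in CTL, with both model groups above CTL. It rose in HUA against CTL (log2 change 1.23, SE 0.24, adjusted p = 0.00241) and in XZSW against CTL (log2 change 1.27, SE 0.24, adjusted p = 0.0159). The second call ended without CTL1, CTL2 or CTL3, at adjusted p = 0.0507 to 0.0597. The log2 change of Cfp in XZSW against HUA was 0.04, with an interval of -0.44 to 0.51 (2 SE either side).

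Factor D, also called adipsin and a major product of fat cells, cuts factor B. Its gene Cfd had 2927, 24, 0 and 0 counts in XZSW, 18, 0, 0 and 78 counts in HUA and 210, 0, 0 and 3 counts in CTL. XZSW1 thus held most of the Cfd counts. The same library had the highest summed level of 8 adipocyte markers, 304 CPM, against 17.9 to 32.7 CPM in the other XZSW libraries, 7.18 to 35.6 CPM in HUA and 17.8 to 43.4 CPM in CTL. Adipoq, which encodes the fat cell hormone adiponectin, was at 13.99 CPM in XZSW1 and at 0.230 CPM or less in the other XZSW libraries. Of 5 tested adipocyte markers 2 rose in XZSW against HUA, and their part in the Cfd values was not tested. Cfd passed in no comparison (adjusted p = 0.650 in HUA against CTL and 0.186 in XZSW against HUA).

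**Figure D3:**
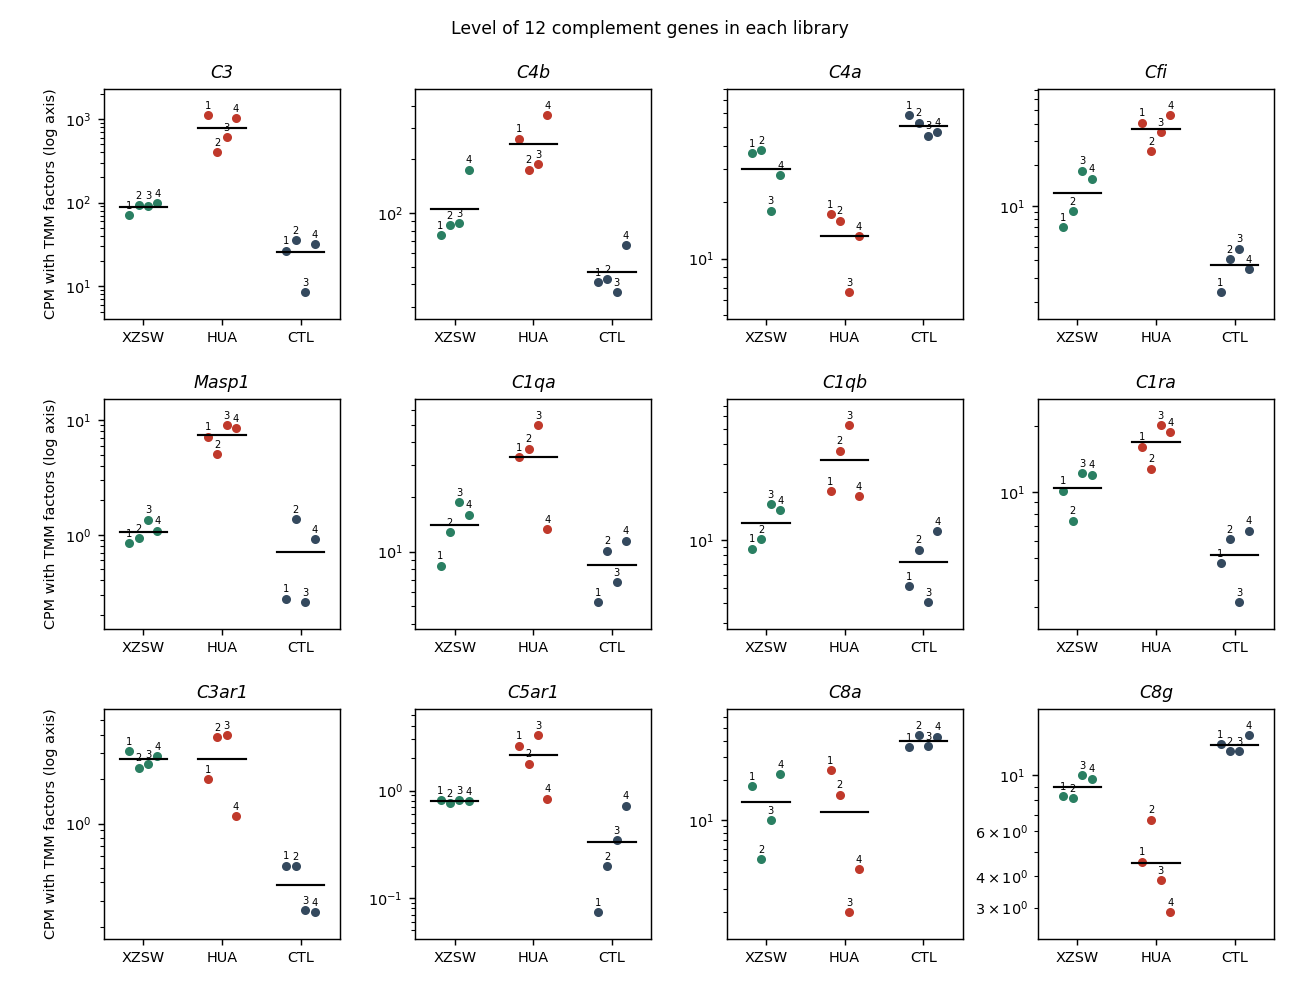
Level of 12 complement genes in CPM with TMM factors on log axes, 1 point per library labelled by its number, with the group mean as a line (n = 4 each). C3, Cfi and Masp1 are highest in all 4 HUA libraries, C4a and C8g are lowest there, and the C3ar1 values of XZSW and HUA overlap.

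The terminal arm assembles the membrane attack complex from C5 to C9. HUA against CTL gave 1 rise and 2 falls among its 6 tested genes, while 1 rose in XZSW against HUA and 1 rose in XZSW against CTL. Hc, which encodes C5, had 45, 12, 21 and 38 counts in XZSW, 119, 142, 144 and 190 counts in HUA and 5, 0, 0 and 0 counts in CTL. Every HUA library lay above every XZSW library, and all CTL counts came from CTL1. Hc rose in HUA against CTL (log2 change 6.30, SE 0.93, adjusted p = 0.000479) and in XZSW against CTL (log2 change 4.12, SE 0.90, adjusted p = 0.0249), and its log2 change of -2.18 in XZSW against HUA did not pass (adjusted p = 0.0529). That fall did pass with library totals (adjusted p = 0.0366), DESeq2 (adjusted p = 0.00204), limma on log2(FPKM + 1) (adjusted p = 0.00226) and the fit on the 8 libraries of XZSW and HUA (adjusted p = 0.0275). The size of its log2 changes against CTL depends on the prior count, and without CTL1 the CTL group was at 0. The call in XZSW against CTL ended without CTL2, CTL3, CTL4, XZSW1, XZSW3 or XZSW4 (adjusted p = 0.0505 to 0.0777) and with limma on log2(FPKM + 1) (adjusted p = 0.299). Levels of Hc were low throughout, at 0.322 FPKM on average in HUA.

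C8 is made of alpha, beta and gamma chains. The alpha chain gene C8a had 17.96, 5.06, 9.904 and 22.2 CPM in XZSW, 23.7, 15.5, 1.99 and 4.24 CPM in HUA and 35.5, 43.7, 36.3 and 42.7 CPM in CTL. C8g, the gamma chain gene, had 8.26, 8.14, 10.01 and 9.72 CPM in XZSW, 4.56, 6.69, 3.85 and 2.88 CPM in HUA and 13.3, 12.5, 12.5 and 14.4 CPM in CTL. Both lay below every CTL library in HUA and in XZSW, and XZSW was above HUA in all libraries for C8g but overlapped HUA for C8a. C8g fell in HUA against CTL (log2 change -1.55, SE 0.23, adjusted p = 0.000455), whereas it rose in XZSW against HUA (log2 change 1.01, SE 0.22, adjusted p = 0.0106), and this rise ended at adjusted p = 0.0519 when only the 8 libraries of XZSW and HUA were fitted. C8a fell in HUA against CTL (log2 change -1.80, SE 0.62, adjusted p = 0.0462), but the call ended in 9 of 12 omissions of 1 library, all but those of HUA1, XZSW2 and XZSW4 (adjusted p = 0.0561 to 0.112). It also ended once GC class was fitted (adjusted p = 0.169), with library totals (adjusted p = 0.0749), without the filter on low counts (adjusted p = 0.0766) and in the fit on 8 libraries (adjusted p = 0.0586). In XZSW against CTL neither passed, with a log2 change of -1.52 for C8a (adjusted p = 0.160) and -0.54 for C8g (adjusted p = 0.164), but both did in the fit on the 8 libraries of that comparison (adjusted p = 0.0252 for C8a and 0.0243 for C8g). The beta chain gene C8b had 13 counts in HUA1, 2 in CTL4 and 0 in the other 10 libraries, and was not tested.

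C6, C7 and C9, which extend the attack complex, were low in all groups. C6 had 0, 46, 40 and 40 counts in XZSW, 22, 31, 23 and 0 counts in HUA and 4, 0, 0 and 0 counts in CTL, and C9 had 44, 23, 33 and 38 counts in XZSW, 20, 73, 25 and 28 counts in HUA and 16, 26, 10 and 4 counts in CTL. C7 averaged 1.63 ± 0.370 CPM in XZSW, 1.08 ± 0.506 CPM in HUA and 0.714 ± 0.400 CPM in CTL (SD, n = 4 each). The 3 genes passed in no comparison, with adjusted p of 0.104 for C6, 0.406 for C7 and 0.346 for C9 in HUA against CTL, while DESeq2 called C6 in XZSW against CTL (adjusted p = 0.0397). Hepatocytes are the textbook source of terminal components. Of 7 tested hepatocyte markers, 3 rose in XZSW against HUA, while HUA against CTL gave 1 rise and 2 falls, with summed levels of 85.1 to 145 CPM in XZSW, 47.9 to 77.3 CPM in HUA and 110.4 to 142 CPM in CTL. Ttr took much of these sums, averaging 68.3 CPM in XZSW, 28.4 CPM in HUA and 105 CPM in CTL. Ttr was 1 of the 2 that fell in HUA against CTL (log2 change -1.88). The 1 that rose was Serpina1a (log2 change 3.80, adjusted p = 0.000660). The part of hepatocytes in the terminal arm values was not tested.

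The receptors C3ar1 and C5ar1 bind the C3a and C5a fragments and are found mainly on myeloid cells. Both had mean FPKM under 1 in every group and are given in full after their values were seen. C3ar1 had 3.11, 2.39, 2.53 and 2.86 CPM in XZSW, 2.01, 3.84, 3.95 and 1.12 CPM in HUA and 0.518, 0.516, 0.258 and 0.251 CPM in CTL. C5ar1 had 0.812, 0.766, 0.816 and 0.796 CPM in XZSW, 2.603, 1.77, 3.25 and 0.841 CPM in HUA and 0.0740, 0.198, 0.345 and 0.721 CPM in CTL. C3ar1 was above CTL in every XZSW and HUA library, while C5ar1 in XZSW stood just under the lowest HUA library and just above the highest CTL library. C3ar1 rose in HUA against CTL (log2 change 2.82, SE 0.43, adjusted p = 0.000612) and in XZSW against CTL (log2 change 2.81, SE 0.43, adjusted p = 0.00814), and C5ar1 rose in HUA against CTL (log2 change 2.65, SE 0.59, adjusted p = 0.00523). The log2 change of C3ar1 in XZSW against HUA was -0.004, with an interval of -0.79 to 0.79, and that of C5ar1 was -1.41, with an interval of -2.53 to -0.29 (2 SE either side) and adjusted p = 0.109. The C5ar1 fall passed with limma on log2(FPKM + 1) (adjusted p = 0.0282). Neutrophils also carry C5ar1. The summed level of 8 neutrophil markers was 2.56 to 8.05 CPM in XZSW, 1.52 to 12.5 CPM in HUA and 1.05 to 3.502 CPM in CTL. Of 5 tested neutrophil markers 2 rose in HUA against CTL. EdgeR called 0 in XZSW against HUA, with 1 lower at an unadjusted p under 0.05, and 0 in XZSW against CTL, with 0 at that threshold. Their part in the receptor values was not tested. C5ar2, a C5a receptor that does not couple to G proteins, had at most 8 counts in a library, and neither it nor Vsig4 was tested. Vsig4, a macrophage receptor for C3 fragments, had 4 counts in XZSW2 and 0 in the other 11 libraries.

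Of the 5 regulators 1 rose and 1 fell in HUA against CTL, 1 fell in XZSW against HUA and 1 rose in XZSW against CTL. Factor I cuts C3b and C4b and so switches off the convertases. Its gene Cfi, at chr3:129835884-129875332, had 6.97, 9.15, 18.1 and 15.9 CPM in XZSW, 40.6, 25.1, 34.8 and 45.8 CPM in HUA and 2.35, 4.09, 4.87 and 3.45 CPM in CTL. No 2 groups overlapped, with XZSW between HUA and CTL. Cfi rose in HUA against CTL (log2 change 3.31, SE 0.33, adjusted p = 4.72e-05), fell in XZSW against HUA (log2 change -1.55, SE 0.31, adjusted p = 0.00658) and rose in XZSW against CTL (log2 change 1.76, SE 0.32, adjusted p = 0.0147). None of these 3 calls ended in the 12 omissions of 1 library.

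CD55 speeds the decay of C3 convertases on cell membranes. Cd55 had 13.3, 8.18, 8.11 and 9.01 CPM in XZSW, 6.69, 7.79, 8.46 and 4.16 CPM in HUA and 13.4, 13.3, 19.7 and 13.2 CPM in CTL. All HUA libraries lay below CTL, and Cd55 fell in HUA against CTL (log2 change -1.14, SE 0.25, adjusted p = 0.00443). XZSW against HUA did not pass (log2 change 0.51, adjusted p = 0.182). CD59 blocks pore assembly, and Cd59a averaged 28.5 ± 16.6 CPM in XZSW, 21.7 ± 2.08 CPM in HUA and 24.2 ± 1.82 CPM in CTL (SD, n = 4 each). Its log2 change in HUA against CTL was -0.16, with an interval of -0.73 to 0.42 (2 SE either side), and it was 0.17 with library totals. Serping1, which encodes C1 inhibitor, averaged 37.8 ± 21.3 CPM in XZSW, 30.3 ± 16.4 CPM in HUA and 19.98 ± 7.84 CPM in CTL (SD, n = 4 each). Cd46, a cofactor of factor I that in mice is known mainly from testis, averaged 7.04 ± 1.79 CPM in XZSW, 5.63 ± 2.15 CPM in HUA and 4.14 ± 0.848 CPM in CTL (SD, n = 4 each). Cd59a, Serping1 and Cd46 passed in no comparison. In HUA against CTL the adjusted p was 0.734 for Cd59a, 0.371 for Serping1 and 0.310 for Cd46. A close relative, Cd55b, holds 5.504% of the 100-base windows of the longest Cd55 transcript, and Cd59b holds 0.293% of those of Cd59a.

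Levels can be compared between genes per length, in deposited FPKM. Cfb was by far the highest of the 33 in CTL, at 131 ± 5.26 FPKM, followed by Cd59a at 10.6 ± 1.22 FPKM and C8a at 8.58 ± 0.875 FPKM. In HUA the order began with C3 at 153 ± 64.9 FPKM and Cfb at 114 ± 12.03 FPKM, which overlapped within their spread, then C4b at 43.3 ± 14.3 FPKM and C1qa at 32.3 ± 14.9 FPKM. In XZSW it was Cfb at 120.3 ± 7.87 FPKM, then C4b at 17.3 ± 7.91 FPKM, C3 at 15.97 ± 2.31 FPKM and Serping1 at 15.3 ± 8.82 FPKM (SD, n = 4 each). C4b, C3 and Serping1 in XZSW did not differ beyond their spread.

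**Figure D4:**
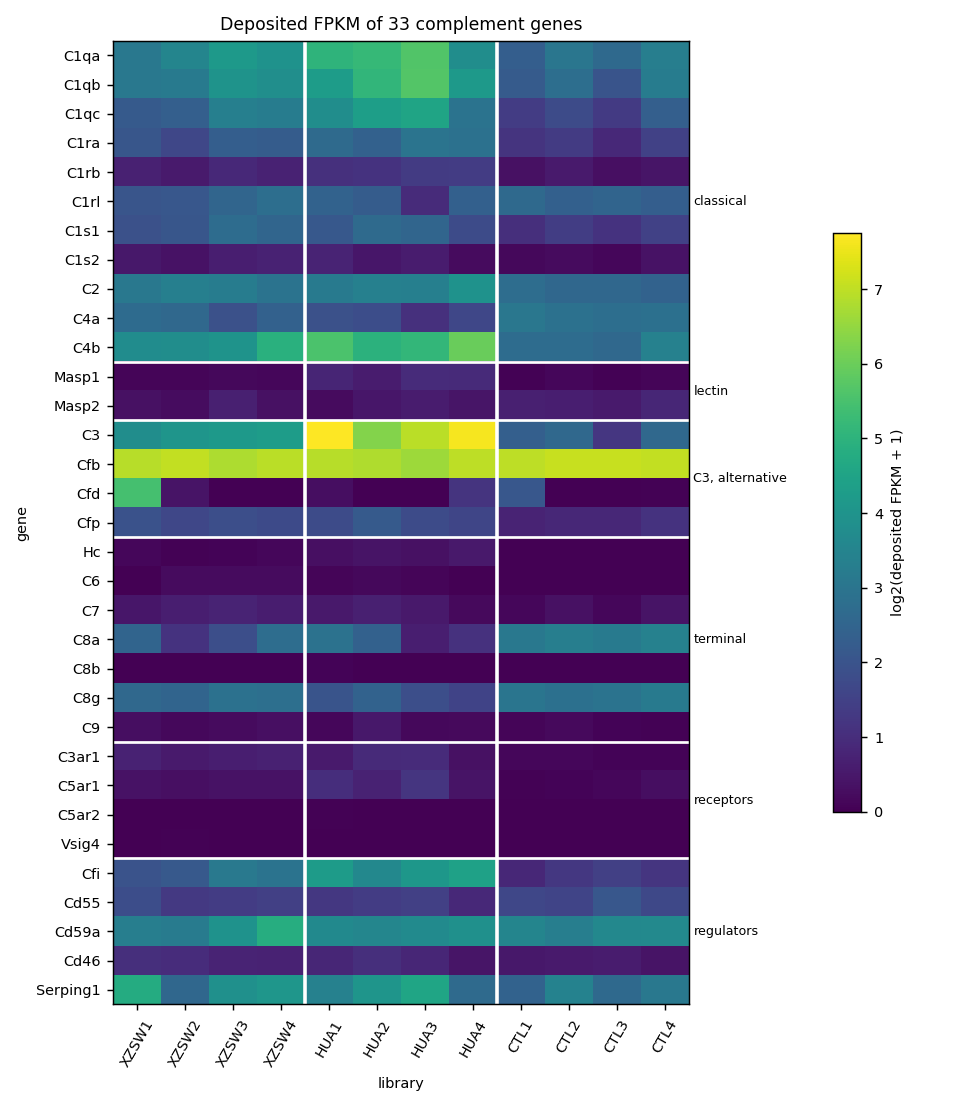
Deposited FPKM of the 33 complement genes (rows, by arm) in the 12 libraries (columns, XZSW then HUA then CTL), as log2(FPKM + 1). Cfb is high in all libraries, C3 and C4b are brightest in HUA, and Cfd is bright in XZSW1.

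Beyond the 33, 25 further complement genes were listed, of which 24 were in the table and 19 were tested. Of these, 6 rose and 1 fell in HUA against CTL, where 14.9% of all tested genes rose and 12.8% fell. In XZSW against HUA 2 fell and 0 rose by edgeR, with 2 higher at an unadjusted p under 0.05, and in XZSW against CTL 3 rose and 0 fell, with 0 lower at that threshold. Their median log2 change was 0.72 in HUA against CTL, -0.14 in XZSW against HUA and 0.58 in XZSW against CTL. Clu, which encodes clusterin, a secreted inhibitor of the attack complex that is also a tubular injury marker, had 542, 553, 769.5 and 615 CPM in XZSW, 2749, 1939.5, 4667 and 4931 CPM in HUA and 162, 147, 186 and 168 CPM in CTL, and its groups did not overlap. Clu rose in HUA against CTL (log2 change 4.43, SE 0.29, adjusted p = 3.04e-06), fell in XZSW against HUA (log2 change -2.53, SE 0.27, adjusted p = 0.000248) and rose in XZSW against CTL (log2 change 1.905, SE 0.26, adjusted p = 0.00525). Cpn1, the catalytic subunit of the carboxypeptidase that inactivates C3a and C5a, averaged 6.25 ± 2.02 CPM in XZSW, 13.1 ± 2.74 CPM in HUA and 2.97 ± 0.637 CPM in CTL (SD, n = 4 each). It rose in HUA against CTL (log2 change 2.14, SE 0.27, adjusted p = 0.000173) and fell in XZSW against HUA (log2 change -1.07, SE 0.26, adjusted p = 0.0160). Itgam and Itgax, the alpha chains of complement receptors for C3 fragments on myeloid cells (Itgam is also one of the macrophage markers), rose in HUA against CTL by log2 changes of 4.08 for Itgam (adjusted p = 0.000432) and 2.21 for Itgax (adjusted p = 0.00899). In XZSW against HUA the log2 change was -1.01 for Itgam (adjusted p = 0.208) and -0.43 for Itgax (adjusted p = 0.636), and neither passed. Against CTL, XZSW showed a rise of Itgam (log2 change 3.06, adjusted p = 0.0158) and of Cpn1 (log2 change 1.07, adjusted p = 0.0374). Itgax did not pass there (log2 change 1.79, adjusted p = 0.0712).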

How the data were processed

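RNA was measured in 12 mouse kidney libraries, built with strand information per the labels' protocols. The submitters' processing notes name cutadapt 1.9, HISAT2 2.2.1 and GRCm38, without saying how they were used; counting tool, annotation and filters are not given in the sources used here. Raw counts per gene and library were deposited by the authors, beside FPKM values, which the authors normalised to gene length and depth.

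Genes passing filterByExpr (19772) were scaled with TMM. One edgeR quasi-likelihood fit took in all 12 libraries. P-values were adjusted by Benjamini-Hochberg with a threshold of 0.05, and standard errors came from the F statistic. Versions were R 4.3.3 with DESeq2 1.42.0, edgeR 4.0.16 and limma 3.58.1, and Python 3.11.15. The code was tested on simulated data. For limma the pseudocount on FPKM was 1. Replicate libraries differed beyond counting error (chi-square per degree of freedom 25.96 to 469). The range was 86.5 to 254 in XZSW, 214 to 469 in HUA and 25.96 to 60.6 in CTL. The groups thus differed in spread, while the fit used 1 estimate of spread per gene for all of them. Depth was 51.6 to 74.3 M counts. Motifs were searched in the 250 bases before each start. Members called in HUA against CTL or in XZSW against HUA with a mean of at least 1 FPKM were to be given in full, and the others by range; fuller values are given for Masp1, Hc, C3ar1, C5ar1 and Cfd, chosen after their values were seen. Of other complement genes the rule named the 4 with the smallest p among those called in HUA against CTL (Clu, Cpn1, Itgam and Itgax). The complement genes, marker lists and tests were chosen with earlier results of these data known. Values of 2 genes in these lists are not reported here. Alternatives were other scalings, filters and tests, a fit on 8 libraries, summed paralogs, a replicate block, a GC term and omission of each library.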

Additional observations from a re-analysis of the deposited data

Results flagged for a closer look

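In 96 sets of 4 libraries, 1 library stood far from the other 3 in 12, by the size of its gap to the nearest library relative to the whole range of the set. For continuous values chance flags about 1 in 20, a rate that does not apply to the 7 sets where 1 library held all counts. C4b was at 175 CPM in XZSW4, against 75.5 to 88.05 CPM in the other XZSW libraries. Cd55 was at 19.7 CPM in CTL3, against 13.2 to 13.4 CPM in the other CTL libraries. Masp2 was at 2.13 CPM in XZSW3, against 0.797 to 0.969 CPM in the rest of its group. Cfd was at 41.7 CPM in XZSW1 and at 3.88 CPM in CTL1, with the other libraries of each group at 0.368 CPM or less. The remaining sets hold genes with very few counts, where 1 library had all of them: Hc at 0.0925 CPM and C6 at 0.074 CPM in CTL1, C8b at 0.162 CPM in HUA1 and 0.0335 CPM in CTL4, C5ar2 at 0.0613 CPM in XZSW2 and 0.0503 CPM in CTL4, and Vsig4 at 0.0613 CPM in XZSW2.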

How the results depend on the processing

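Of the complement genes, 15 rose in HUA against CTL, with 13 to 15 under the 8 other settings and 14 to 16 without 1 library. The 5 that fell became 3 with library totals and were 4 to 5 without 1 library. In XZSW against HUA the 6 that fell became 10 with library totals, with DESeq2 and with limma on log2(FPKM + 1), and 3 to 7 without 1 library, with the lowest number without XZSW1 or XZSW2, and the 2 that rose became 0 in the fit on 8 libraries. In XZSW against CTL the 8 that rose became 5 with the GC class and 2 to 8 without 1 library, with 2 without CTL2, 3 without CTL1, CTL3, XZSW3 or XZSW4, 4 without CTL4 and 5 without XZSW1. There 0 fell, but 3 did in the fit on 8 libraries, 1 with the replicate block and 1 with the GC class. Over all tested genes, the 987 called in XZSW against CTL became 529 without the filter, 2417 with DESeq2, 2625 in the fit on 8 libraries and 1750 with the GC class, and 133 to 1596 without 1 library. It was 308 without CTL1, 133 without CTL2, 165 without CTL3, 324 without CTL4, 313 without XZSW1, 249 without XZSW3, 520 without XZSW4 and 1596 without HUA1. The 3051 called in XZSW against HUA became 1439 in the fit on 8 libraries and 1711 to 3817 without 1 library, with 1711 without HUA3 and 1845 without XZSW2.

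The replicate numbers were not taken to pair the libraries, since deviations of same-numbered libraries correlated at -0.0332 to 0.266 and over 0.1 in only 3 of 12 pairs. As a hint from the data, in 7 of these 12 pairs the library correlated best with its own number among the 4 libraries of the other group. The pairs share libraries. With the replicate block 15 members rose and 6 fell in HUA against CTL, 2 rose and 7 fell in XZSW against HUA, and 7 rose and 1 fell in XZSW against CTL, where the C1ra call ended (adjusted p = 0.0559) and C4a passed as lower (log2 change -0.82, adjusted p = 0.0387). Hc passed as lower in XZSW against HUA with the block (adjusted p = 0.0468), and Masp2 in HUA against CTL (adjusted p = 0.0417).

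Log2 changes whose sign turned are as follows. In XZSW against HUA, Cfp was -0.13 with library totals, -0.046 with limma and -0.068 to 0.22 without 1 library, and C3ar1 was 0.12 with the replicate block, 0.068 with the GC class and -0.27 to 0.22 without 1 library. C8a ran from -0.078 to 0.92, C1s1 from -0.023 to 0.34 and C1s2 from -0.032 to 0.58 without 1 library. Masp2 was -0.14 with library totals, -0.028 with limma and -0.42 to 0.22 without 1 library in XZSW against HUA, and C9 was -0.095 with library totals and -0.17 to 0.71 without 1 library. Cd59a was 0.17 with library totals and 0.18 with limma in HUA against CTL, -0.082 to 0.57 without 1 library in XZSW against HUA, and -0.19 with the GC class and -0.24 to 0.42 without 1 library in XZSW against CTL. Serping1 was -0.0795 to 0.67 without 1 library in XZSW against HUA. Cfd in HUA against CTL was 1.55 with the replicate block, 5.02 with the GC class and -3.65 to 4.04 without 1 library. In XZSW against HUA it was -1.19 with the GC class and -1.46 to 7.09 without 1 library, and in XZSW against CTL -2.98 to 8.99 without 1 library, with XZSW1 as the library whose omission turned the sign of both. The summed counts of C4a and C4b gave 1.40 in HUA against CTL, -0.92 in XZSW against HUA and 0.48 in XZSW against CTL. These are changes of the sum, whereas C4a alone gave -1.94, 1.18 and -0.76 in the same order. The cause of the other turns of sign was not tested. Over the log2 changes of the 30 tested members and all alternatives, 1653 values kept their direction and their side of the threshold, 80 no longer passed, 36 newly passed and 42 changed sign. Levels under about 1 CPM limit what can be said of C6, C9, C8b, C5ar2 and Vsig4. The limit also touches called genes, in the size of their changes against CTL. Mean CTL levels were 0.0231 CPM for Hc, 0.707 CPM for Masp1, 0.386 CPM for C3ar1 and 0.334 CPM for C5ar1. C7, C1s2 and Cfd, which edgeR did not call, averaged under 1 CPM in CTL as well.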
